A study of Mus musculus with 55 samples.

Results

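The caspases, the Bcl2 family and their partners were followed in the mouse optic nerve head (ONH) after optic nerve crush. The set was chosen by symbol. It took every gene with a probe set of its own whose symbol begins with Bcl2, or with Casp or Ripk and a number, together with Bak1, Bid, Bad, Bbc3, Bik, Mcl1, Apaf1, Birc2, Birc3 and Xiap. This gave 29 genes of the 12393 that had a probe set of their own, with the brightest of their 60 probe sets used where a gene had several, as 15 did. Of the 29 genes, 24 were bright enough to be tested. Bbc3, Bcl2l10, Bcl2l14, Bcl2l15 and Casp14 were not, and on no array did any of these 5 exceed an intensity of 104. The 24 tested genes were bright enough in uninjured tissue too: the least of them there, Ripk3, reached 50 on 18 of the 20 contralateral arrays up to 3 weeks. Bax, Ripk1 and Ripk2, and the Bcl2a1 genes, whose 3 probe sets list several genes each, are not analysed here.

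The mice were C57Bl/6 females aged 6 to 8 weeks at surgery. The crush lasted 10 seconds and was placed on the left optic nerve, 1 mm from the back of the globe, and the ONH of that side is called crushed. The unoperated right eye of operated mice gave the contralateral ONH, and naïve mice had no surgery on either eye. Crushed and contralateral ONHs were collected at 1 and 3 days, at 1 and 3 weeks, and at 3 months, which with the naïve group made 11 conditions of 5 samples, each a pool of 2 ONHs on its own array. The samples of 3 months formed a second batch and were compared only among themselves. The crush injures the axons of retinal ganglion cells, which pass through the ONH among astrocytes, microglia and, further back, oligodendrocytes, while their cell bodies lie in the retina. In such bulk tissue, fewer cells of a type and less RNA per cell cannot be told apart.

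Caspases are proteases made as inactive precursors. Initiator caspases are activated on large complexes, such as caspase 8 on death receptors and caspase 9 on the apoptosome built from Apaf1 and cytochrome c, and they cleave the executioner caspases. The Bcl2 family decides whether mitochondria release that cytochrome c: Bcl2, Bcl2l1 (Bcl-xL), Bcl2l2 (Bcl-w) and Mcl1 hold it back, Bak1 forms the pore, and BH3-only proteins such as Bcl2l11 (Bim) and Bid relieve the block. Caspases 1, 4 and 12 belong to an inflammatory branch, in which caspase 1 on the inflammasome matures interleukin 1 beta and caspase 4 (called caspase 11 in the mouse) senses bacterial lipopolysaccharide. Ripk3 is the kinase of necroptosis, a caspase-independent death that caspase 8 restrains, and Birc2, Birc3 and Xiap are inhibitor of apoptosis proteins.

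Most changes of the set were rises. With a call meaning an adjusted p under 0.05 and at least a 2-fold difference between crushed and contralateral samples, 3 of the 24 genes were called higher and 1 lower at 1 day. Of all 19313 probe sets tested, 14.5% were called then, 7.02% higher and 7.44% lower. At 3 days 3 members were called higher and 1 lower, where 8.79% of all probe sets were called, 6.6% higher and 2.2% lower. At 1 week 7 were called higher and 0 lower, against 9.73% of all, 6.21% higher and 3.53% lower. At 3 weeks 1 was called higher, against 4.11% of all, 2.36% higher and 1.75% lower. At 3 months 1 was called higher, against 0.462% of 18823 probe sets, 0.207% higher and 0.255% lower. The members called in either direction made 16.7% of the set at 1 day and 4.17% at 3 weeks, close to the background, and 29.2% at 1 week. The counts rested in part on single replicates: 7 were called at 3 days without replicate 2, 4 at 1 week without replicate 4, 0 at 3 weeks without replicate 1 and 2 there without replicate 3, 4 or 5, and 0 at 3 months without any 1 of the 5.

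Counting any size of change at an adjusted p under 0.05, 10 of the 24 rose and 6 fell at 1 day, where 25.8% of all probe sets rose and 28% fell. At 3 days 10 rose and 3 fell (25.2% and 15.2% of all), at 1 week 12 and 2 (23% and 19.2%), at 3 weeks 10 and 2 (10.4% and 12.1%), and at 3 months 2 and 1 (0.223% and 0.377%). The median log2 difference of the 24 genes was 0.14 and 0.28 at 1 and 3 days, 0.24 and 0.30 at 1 and 3 weeks and 0.07 at 3 months, where that of all probe sets tested lay between -0.03 and 0.04. Passing in 1 direction at each time to 3 weeks held for 8 genes, a count without a background, since the share of all probe sets was not computed. Of these genes, Apaf1, Bak1, Bid, Casp1, Casp4, Casp8 and Ripk3 rose and Bcl2l2 fell. That list lost Bid, Casp1, Casp4 and Casp8 without replicate 1, Casp1 without replicate 2, Apaf1 without replicate 3 or 4, and Apaf1, Bcl2l2, Bid, Casp1 and Casp8 without replicate 5. Of the 12 members that passed at 3 weeks, 6 still did without replicate 1 and 6 without replicate 5, and of the 3 that passed at 3 months 0 did without any 1 of the 5.

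Whether the crush effect itself changed with time was tested in limma too. None of the 24 was called from 1 day to 3 days (background 4.93%) or from 3 days to 1 week (3.12%), with 5 and 5 at an unadjusted p under 0.05, where 28.2% and 25.2% of all probe sets stood there. From 1 week to 3 weeks 2 were called (4.5%; 1 without replicate 1, 2, 4 or 5), and from 1 day to 3 weeks 3 (12.8%). At any size, 4, 3, 6 and 13 members passed in these 4 contrasts, where 15%, 9.81%, 15.2% and 37.2% of all probe sets did.

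**Figure D1:**
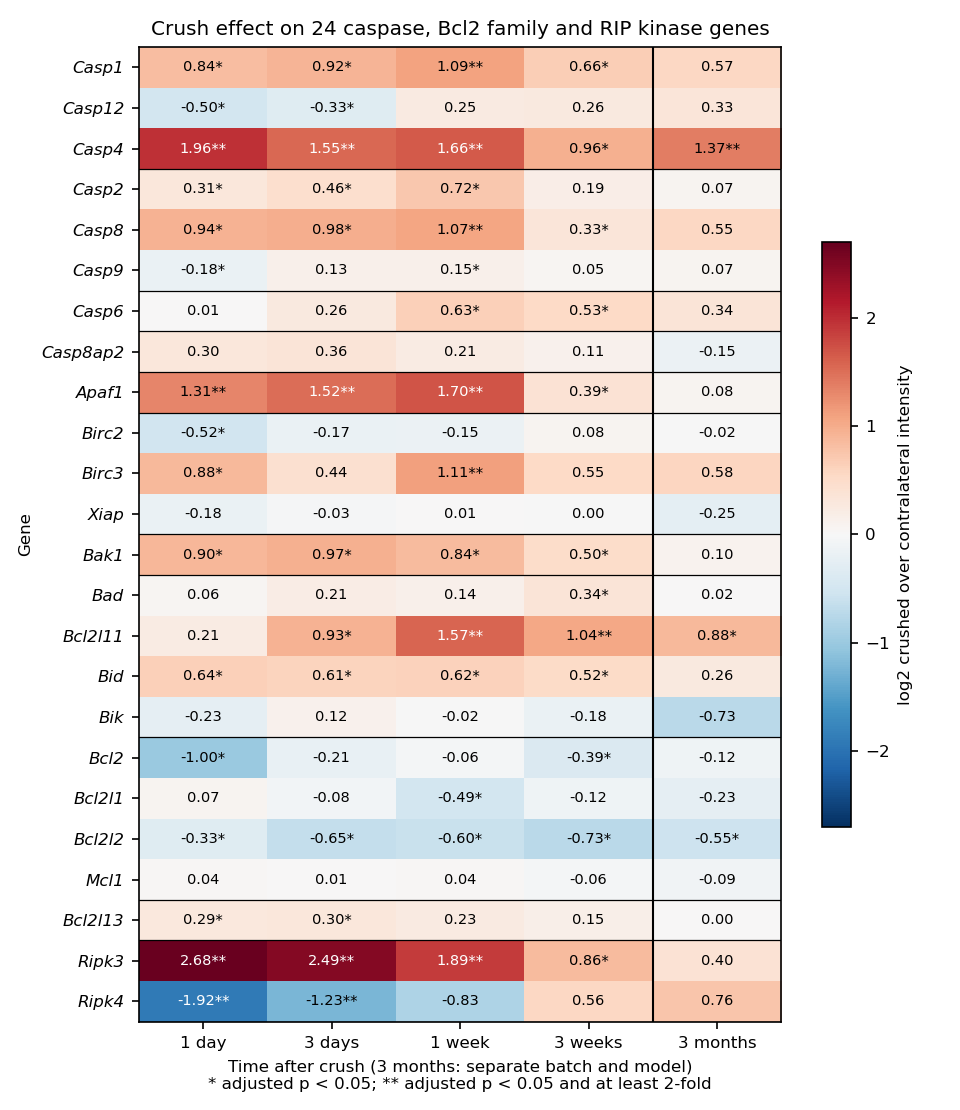
log2 difference between crushed and contralateral ONHs for each tested gene (rows, grouped by role) at each time after crush (columns), with n = 5 pairs per time. Ripk3, Casp4 and Apaf1 were called higher from 1 day to 1 week, Ripk4 was called lower at 1 day and 3 days, and Bcl2l2 stood below 0 at all 5 times.

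The stretches just upstream of 4 genes are shown because the results turn on them. Ripk3, Casp4 and Apaf1 were the 3 members called higher at each time from 1 day to 1 week, and Casp12 is the neighbour of Casp4 and fell at 1 day and 3 days. Each run holds the 250 bases before the annotated start site, 5′ to 3′ on the gene's strand, from RefSeq on build GRCm38.p6, with motif matches in capitals. The windows are chr14:55788858-55789107 on the minus strand (Ripk3), chr9:5308599-5308848 on the plus strand (Casp4, the first of its 2 annotated starts), chr9:5345226-5345475 on the plus strand (Casp12) and chr10:91082744-91082993 on the minus strand (Apaf1).
Ripk3: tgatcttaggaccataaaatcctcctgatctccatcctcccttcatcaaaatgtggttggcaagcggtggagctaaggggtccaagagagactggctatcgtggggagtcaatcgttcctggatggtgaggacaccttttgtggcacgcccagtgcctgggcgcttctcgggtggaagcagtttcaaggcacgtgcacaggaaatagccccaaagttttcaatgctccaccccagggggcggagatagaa
Casp4: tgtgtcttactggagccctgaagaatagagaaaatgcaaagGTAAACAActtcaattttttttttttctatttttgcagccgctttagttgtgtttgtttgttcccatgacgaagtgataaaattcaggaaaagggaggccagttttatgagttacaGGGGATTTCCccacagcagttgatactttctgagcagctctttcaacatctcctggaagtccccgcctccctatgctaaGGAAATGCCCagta
Casp12: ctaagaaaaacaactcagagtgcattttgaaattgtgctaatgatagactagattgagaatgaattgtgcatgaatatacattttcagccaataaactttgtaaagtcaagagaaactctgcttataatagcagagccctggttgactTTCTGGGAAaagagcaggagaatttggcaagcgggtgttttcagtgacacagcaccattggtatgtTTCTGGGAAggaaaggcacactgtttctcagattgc
Apaf1: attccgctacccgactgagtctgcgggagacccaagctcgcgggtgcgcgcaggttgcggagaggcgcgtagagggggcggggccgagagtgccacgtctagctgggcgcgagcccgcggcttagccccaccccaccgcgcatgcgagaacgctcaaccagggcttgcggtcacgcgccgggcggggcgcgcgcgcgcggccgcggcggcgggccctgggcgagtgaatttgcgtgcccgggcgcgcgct

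Capitals mark matches on either strand to 6 motifs: NF-kB (GGG, any 2 bases, then TTTCC), the GAS motif TTCNNNGAA, ISRE (GAAA, any 2 bases, then GAAA), the AP-1 motif TGANTCA, the FOXO motif TTGTTTAC and the E2F motifs TTTCCCGC and TTTGGCGC. The Casp4 window held 2 NF-kB matches, 93 to 84 and 14 to 5 bases before the start, and a FOXO match 209 to 202 bases before it. The Casp12 window held 2 identical GAS matches, TTCTGGGAA, 102 to 94 and 36 to 28 bases before its start. The Ripk3 and Apaf1 windows held none of the 6, which says only that these letters were not in these windows. Over all 32851 windows of the same length, 1.41% held the NF-kB motif, 7.02% GAS, 2.98% ISRE, 6.75% AP-1, 1.07% FOXO and 1.30% E2F, and no match overlapped another here. A window was listed for 26 of the 29 genes, 37 windows in all. Of these 37, 5 held the NF-kB motif: the 2 windows of Casp4 and windows of Mcl1, Bcl2l1 and Bbc3. On their brightest probe sets Mcl1 did not pass at any time and Bcl2l1 fell at 1 week, and Bbc3 was not tested. GAS was in 1 of the 37, FOXO in 3, E2F in 2, and ISRE and AP-1 in 0. The 2 windows of Casp4 overlap and hold the same NF-kB and FOXO matches, so the counts for these 2 motifs include 1 stretch of DNA 2 times. Whether any motif bears on a change was not tested. The windows also differed in CpG dinucleotides, with 42 for Apaf1, 8 for Ripk3, 3 for Casp4 and 1 for Casp12 where the median window had 6.

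Ripk3 had the largest rise of the 24 genes, at 1 day. At 1 day its intensity was 70.3, 61.3, 68.6, 60.8 and 72.6 in the 5 contralateral samples and 423, 523, 363, 291 and 594 in the crushed samples paired with them. The lowest crushed sample was 291 and the highest contralateral one 72.6, so the groups did not overlap. The naïve samples lay between 38.1 and 90.8. The log2 difference was 2.68 ± 0.21 (SE, n = 5 pairs, adjusted p = 2.17e-09), a 6.39-fold rise. It was 2.49 at 3 days and 1.89 at 1 week (both SE 0.21), then 0.86 at 3 weeks (adjusted p = 0.00514), and 0.40 ± 0.26 at 3 months, which did not pass (adjusted p = 0.492). The crush effect at 3 weeks was 1.82 ± 0.29 lower than at 1 day on the log2 scale, and this difference itself was called (adjusted p = 6.76e-05).

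Ripk4, a kinase best known from the skin epidermis, moved in the opposite direction at first. At 1 day the contralateral samples read 163, 109, 147, 159 and 143, and the crushed samples 37.5, 26.9, 112, 34.6 and 10.3. Of the crushed samples, 4 lay below every contralateral sample and the other, replicate 3, lay just inside their range. On the log2 scale Ripk4 differed by -1.92 ± 0.39 at 1 day (adjusted p = 0.000294) and -1.23 at 3 days (adjusted p = 0.0157), and the call at 3 days was lost without replicate 1, 3 or 5. It did not pass at 1 week (-0.83), 3 weeks (0.56) or 3 months (0.76). The change from 1 day to 3 weeks was 2.48 ± 0.55 (adjusted p = 0.00139). A dimmer probe set of Ripk4 gave -1.33, -1.05 and -1.11 from 1 day to 1 week and passed at all 3 times.

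Among the inflammatory caspases, Casp4 and Casp1 rose and Casp12 fell early. Casp4 read 246, 230, 362, 223 and 264 in contralateral samples at 1 day and 775, 1858, 1172, 625 and 1034 in the crushed ones. All 5 crushed samples were above all contralateral ones, and replicate 2 was the highest. The log2 difference was 1.96 ± 0.26 (adjusted p = 2.25e-06), then 1.55, 1.66 and 0.96 at 3 days, 1 week and 3 weeks, passing at each time. Casp4 was also the only member called at 3 months. There the contralateral samples read 255, 315, 324, 505 and 393 and the crushed ones 1076, 723, 907, 1024 and 829, without overlap, and the log2 difference was 1.37 ± 0.20 (adjusted p = 0.0444). That adjusted p rose above 0.05 when any 1 of the 5 replicates was left out, while the log2 difference ranged from 1.20 to 1.46 over the 14 alternatives run. At 3 months the summed intensity of 12 photoreceptor genes had a median of 47434 in contralateral and 2295 in crushed samples. With their level as a covariate the log2 difference was 1.26 for Casp4 (adjusted p = 0.0609), 0.86 for Bcl2l11 (adjusted p = 0.0728) and -0.54 for Bcl2l2 (adjusted p = 0.0815), the 3 members that had passed at 3 months, by 1.37, 0.88 and -0.55 without it. The part of photoreceptors in these results was not tested further.

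Casp1 read 907, 931, 915, 558 and 1185 in contralateral samples at 1 week and 1959, 2023, 1093, 2892 and 1794 in the crushed ones. Every pair rose, but the groups overlapped, since crushed replicate 3 lay below contralateral replicate 5. The log2 difference was 1.09 ± 0.19 (adjusted p = 0.000134) and fell to 0.77 without replicate 4, which had both the lowest contralateral and the highest crushed value. Casp1 passed below 2-fold at 1 day (0.84), 3 days (0.92) and 3 weeks (0.66). Casp12 ranged from 2228 to 2544 in contralateral and from 1417 to 1902 in crushed samples at 1 day, with no overlap. Its log2 difference was -0.50 ± 0.11 at 1 day (adjusted p = 0.000736) and -0.33 at 3 days (adjusted p = 0.0239), and 0.25, 0.26 and 0.33 later, none of which passed. The shift of Casp12 from 3 days to 1 week, 0.57 ± 0.16, passed (adjusted p = 0.0274). A second probe set of Casp12 gave -0.23 and -0.03 at 1 day and 3 days, neither past the test, and 0.67 at 1 week, which passed. Casp1, Casp4 and Casp12 are consecutive protein-coding genes on chromosome 9.

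**Figure D2:**
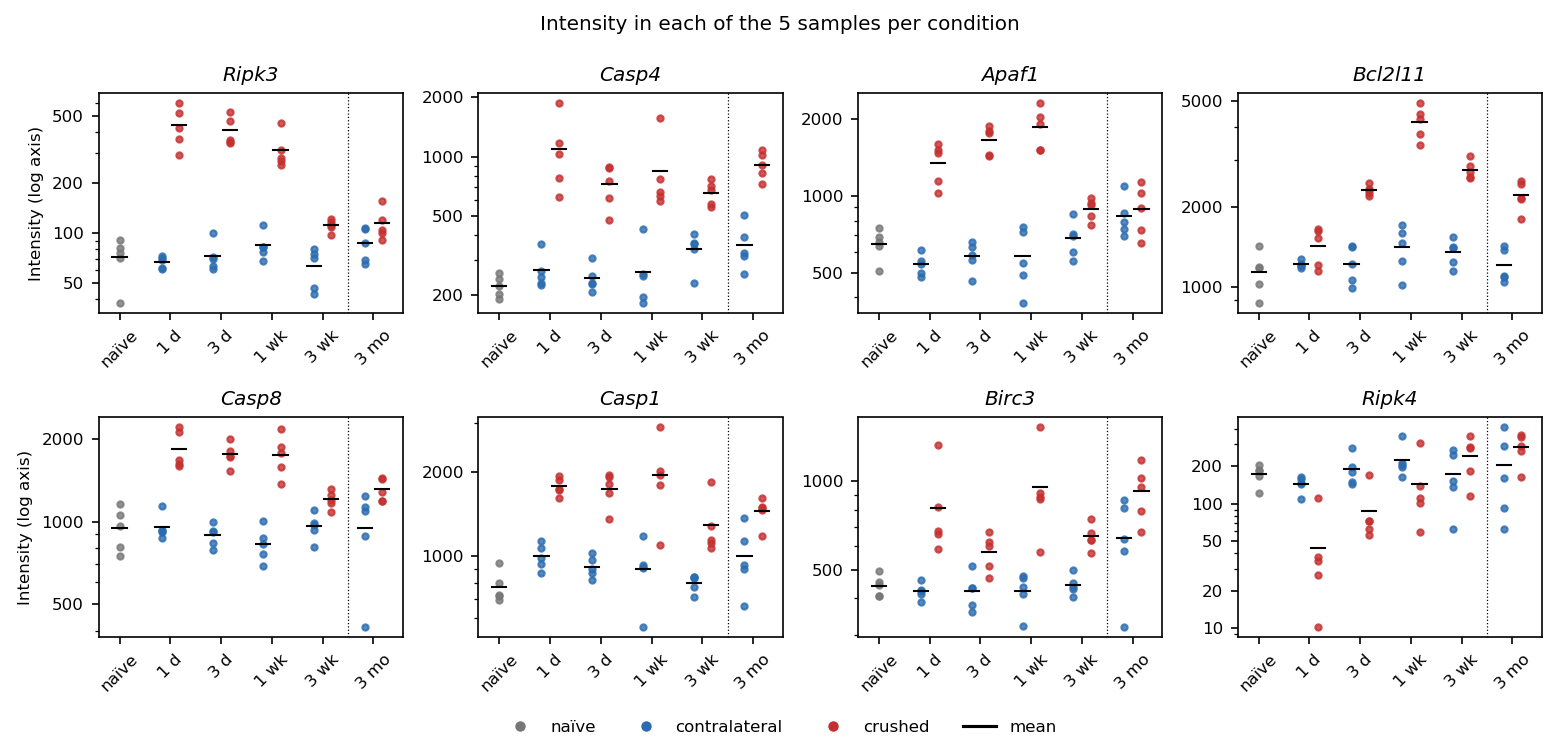
Intensity (log axis) of the 8 genes called at any time, with 1 point per sample and a bar for the mean of 5 samples; naïve, contralateral and crushed samples at each time, 3 months being a separate batch. At 1 day crushed samples of Ripk3 read 291 to 594 against 60.8 to 72.6 in contralateral ones, and those of Bcl2l11 separate from 3 days on.

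**Figure D3:**
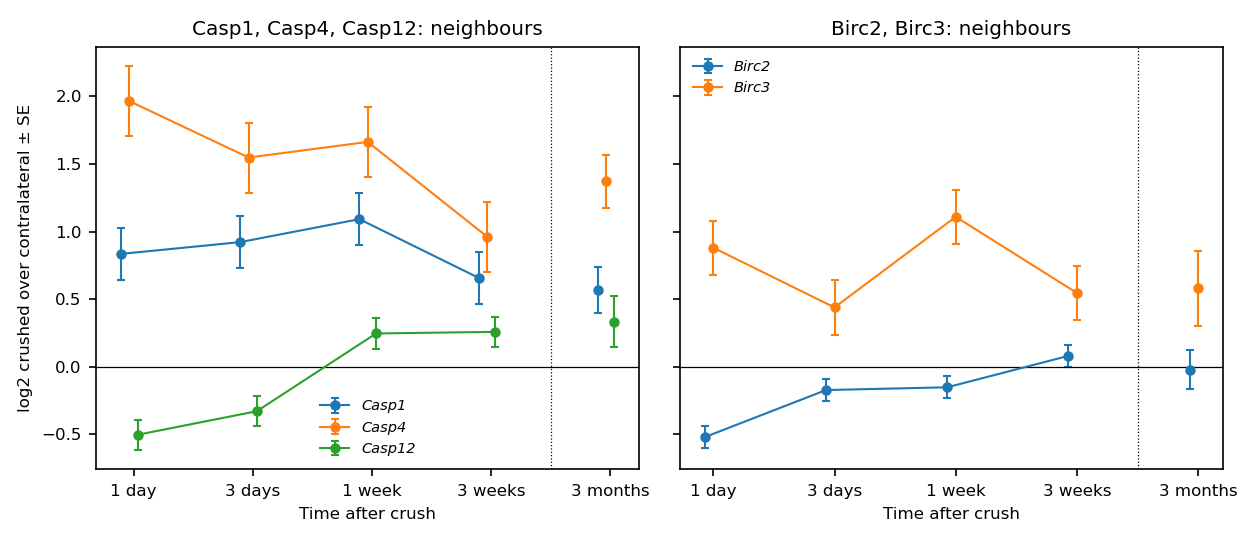
log2 difference between crushed and contralateral ONHs (± SE, n = 5 pairs) over time for genes that lie next to each other on chromosome 9. At 1 day Casp4 stood at 1.96 and Casp1 at 0.84 where Casp12 stood at -0.50, and Birc3 stood at 0.88 where Birc2 stood at -0.52.

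The initiator caspases differed from one another. Casp8 read 870, 827, 688, 760 and 1004 in contralateral samples at 1 week and 1782, 1576, 1372, 2164 and 1867 in the crushed ones, with no overlap. The log2 difference was 1.07 ± 0.09 (adjusted p = 3.36e-08), and those at 1 day (0.94) and 3 days (0.98) passed just short of 2-fold. At 3 weeks it was 0.33, lower than at 1 week by a tested 0.74 ± 0.13 on the log2 scale (adjusted p = 0.0012). Casp2, a caspase tied to stress signalling, rose by 0.31, 0.46 and 0.72 at 1 day, 3 days and 1 week and did not pass at 3 weeks (0.19). Casp9 changed by no more than 0.18 at any time, with -0.18 at 1 day and 0.15 at 1 week passing. Casp6, an executioner caspase, stood at 0.01 at 1 day and rose by 0.63 ± 0.12 at 1 week (adjusted p = 0.000184) and 0.53 at 3 weeks (adjusted p = 0.00239). Casp8ap2, a partner of caspase 8, passed at none of the 5 times.

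Apaf1, the scaffold of the apoptosome, stood higher in crushed samples from 1 day to 3 weeks, and less so at 3 weeks than at 1 week. At 1 week the contralateral samples read 548, 490, 380, 723 and 757 and the crushed ones 2042, 1516, 1505, 2298 and 1914. The lowest crushed sample, 1505, lay above the highest contralateral one, 757. The rise on the log2 scale was 1.31, 1.52 and 1.70 at 1 day, 3 days and 1 week (each SE 0.11, adjusted p = 8.82e-10 at 1 week), 0.39 at 3 weeks (adjusted p = 0.0121) and 0.08 at 3 months (adjusted p = 0.818). The fall from 1 week to 3 weeks was itself called, at -1.32 ± 0.15 (adjusted p = 1.9e-05). The steps from 1 day to 3 days and from 3 days to 1 week did not pass. A far dimmer probe set of Apaf1 gave 1.40, 1.82 and 1.68 over the first 3 times, and 0.26 at 3 weeks and 1.02 at 3 months, neither of which passed.

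Bcl2l11, whose product Bim is a BH3-only protein able to bind every pro-survival member, rose from 3 days on by its brightest probe set. At 1 day the difference of 0.21 ± 0.10 did not pass (adjusted p = 0.0834). At 1 week the contralateral samples read 1472, 1258, 1022, 1721 and 1600 and the crushed ones 4491, 3748, 3434, 4900 and 4300. The groups did not overlap, and the log2 difference was 1.57 ± 0.10 (adjusted p = 9.73e-10), after 0.93 at 3 days and before 1.04 at 3 weeks. The steps from 1 day to 3 days (0.72 ± 0.14, adjusted p = 0.00209) and from 3 days to 1 week (0.64 ± 0.14, adjusted p = 0.0101) both passed. At 3 months the contralateral samples read 1381, 1044, 1106, 1089 and 1424 and the crushed ones 2168, 2155, 2447, 1808 and 2515. They did not overlap, and the difference of 0.88 ± 0.13 passed narrowly (adjusted p = 0.0442), but not without any 1 of the 5 replicates. Of the 5 probe sets of Bcl2l11, all but the dimmest had a mean intensity well above the floor, and these rose by 1.25 to 2.23 at 1 week. The dimmest, with a mean intensity of 24.3 close to the floor of 20, rose by 1.62 at 1 week. It had also risen at 1 day (1.13, adjusted p = 0.000678) and 3 days (1.63). A probe set this dim may have been bright enough to test only through its crushed samples, so its rises add no support.

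Bak1 and Bid rose by less than 2-fold at each time to 3 weeks. Bak1, the pore former, ranged from 908 to 1039 in contralateral and from 1554 to 2058 in crushed samples at 1 day, and its difference was 0.90, 0.97, 0.84 and 0.50 from 1 day to 3 weeks, passing at each time without overlap. A second, much dimmer Bak1 probe set did not pass at any time, and it stood at -0.04 at 1 day and -0.33 at 3 weeks. Bid, a BH3-only protein cut by caspase 8, rose by 0.64, 0.61, 0.62 and 0.52 at the same times, and its dimmer probe set passed at 1 day alone (0.83). Bad passed only at 3 weeks (0.34, adjusted p = 0.0308), and Bik at none. Bad did not pass without replicate 1, 3 or 5, nor on its other probe set (0.32, adjusted p = 0.0983). Bcl2l13, a mitochondrial relative, rose by 0.29 and 0.30 at 1 day and 3 days. It did not pass at 1 day without replicate 3, 4 or 5. At 3 days it did not pass without replicate 1, 2, 4 or 5, under quantile normalization or under a shift to a common median.

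None of the 4 tested pro-survival genes rose at any time on its brightest probe set, and 3 of them fell at 1 time or more. Bcl2 ranged from 816 to 985 in contralateral and from 384 to 546 in crushed samples at 1 day, with a log2 difference of -0.997 ± 0.132 (adjusted p = 2.33e-06) that lay just short of the 2-fold limit. It passed again at 3 weeks (-0.39, adjusted p = 0.0371), though not without replicate 1, 3, 4 or 5, but not at 3 days (-0.21) or 1 week (-0.06), and its recovery from 1 day to 3 days passed (0.79 ± 0.19, adjusted p = 0.0065). Bcl2l2 fell at all 5 times, by log2 differences of -0.33, -0.65, -0.60, -0.73 and -0.55. At 3 months its contralateral samples read 5218, 4848, 5238, 5331 and 5548 and its crushed samples 3825, 3124, 3508, 3385 and 4122, with no overlap (adjusted p = 0.0456, not kept without any 1 of the 5 replicates). Bcl2l1 passed at 1 week alone on its brightest probe set, from 3032 to 3661 in contralateral to 2323 to 2527 in crushed samples, a difference of -0.49 ± 0.06 (adjusted p = 1.33e-06). Mcl1 stood between -0.09 and 0.04 at the 5 times and did not pass.

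**Figure D4:**
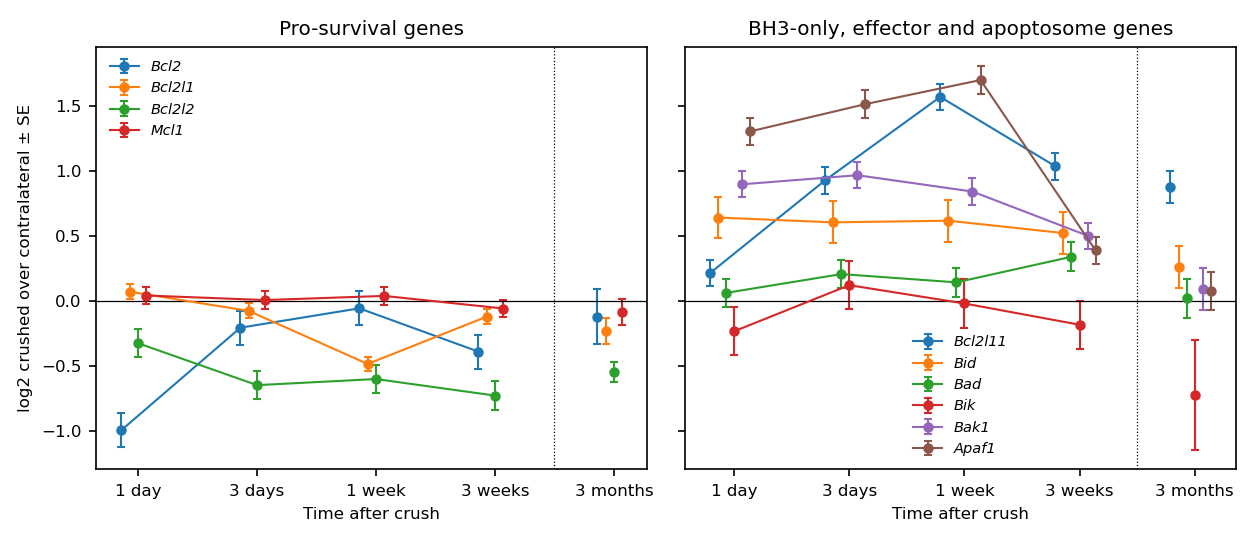
log2 difference between crushed and contralateral ONHs (± SE, n = 5 pairs) over time for pro-survival genes (left) and for BH3-only genes, Bak1 and Apaf1 (right), on 1 axis. Bcl2 stood at -0.997 at 1 day and Bcl2l2 at or below -0.33 throughout, where Apaf1 and Bcl2l11 reached 1.70 and 1.57 at 1 week.

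Probe sets of the same gene did not always move together. Of the 6 probe sets of Mcl1, the dimmest rose by 1.16, 0.71 and 0.61 at 1 day, 3 days and 1 week and passed each time, while the other 5 stayed between -0.05 and 0.13 over those times and did not pass. For Bcl2l2 the brighter pair of probe sets fell at 1 day (-0.33 and -0.49) where the dim pair rose (0.46 and 0.40). For Bcl2l1 the 2 other tested probe sets fell further at 1 week (-0.93 and -1.03) than the brightest, and they also passed at 3 weeks (-0.59 and -0.48). The transcripts that each probe set reads were not resolved here.

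**Figure D5:**
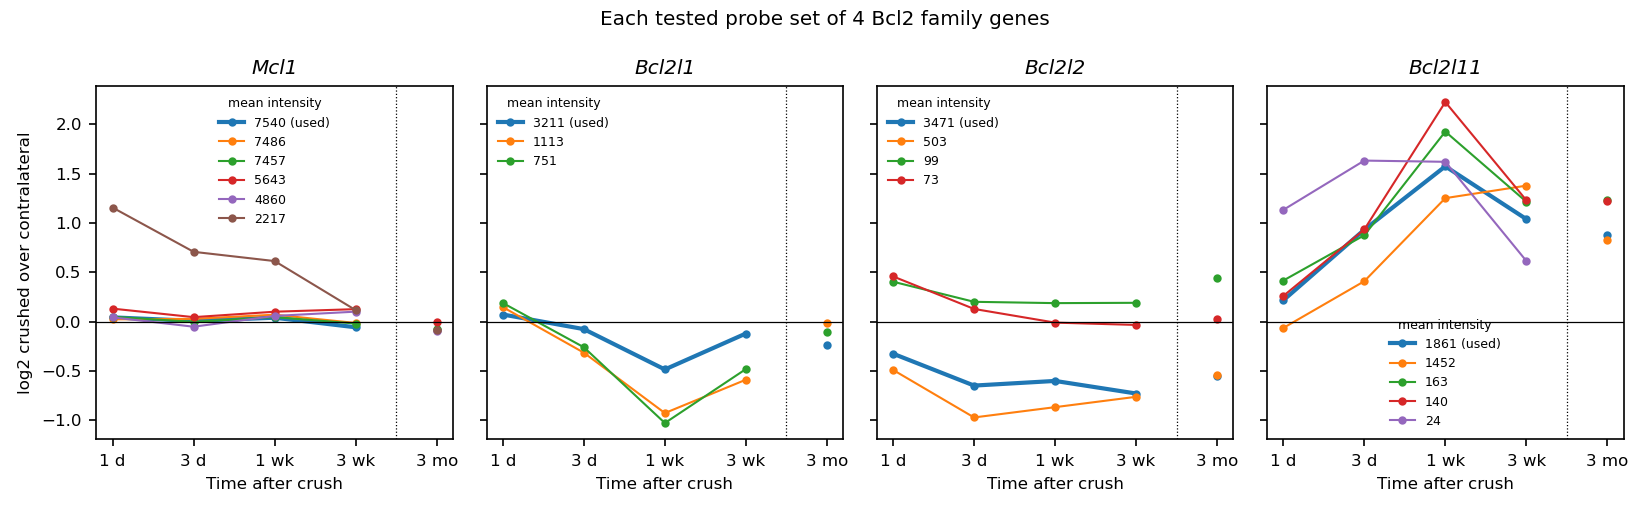
log2 difference between crushed and contralateral ONHs over time for each tested probe set of Mcl1, Bcl2l1, Bcl2l2 and Bcl2l11, labelled by its mean intensity over 55 arrays; the thick line is the one used for the gene. The dimmest Mcl1 probe set reached 1.16 at 1 day where the one used stood at 0.04.

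The inhibitors of apoptosis split between neighbours on chromosome 9. Birc3 read 470, 413, 437, 323 and 476 in contralateral samples at 1 week and 885, 572, 913, 1520 and 866 in the crushed ones. The groups did not overlap, though replicate 4 stood apart with the lowest contralateral and the highest crushed value. The rise was 1.11 ± 0.20 (adjusted p = 0.000163) on the log2 scale, and 0.83 without replicate 4. Birc3 also rose at 1 day (0.88, adjusted p = 0.000905) but did not pass at 3 days (0.44) or 3 weeks (0.55). A dimmer probe set of Birc3 gave 0.65, 0.10, 1.06 and 0.82 from 1 day to 3 weeks and passed at each time but 3 days. Birc2 fell at 1 day, from 1339 to 1626 in contralateral to 984 to 1142 in crushed samples, a difference of -0.52 ± 0.08 (adjusted p = 1.9e-05), and did not pass later. Xiap, the direct caspase inhibitor, passed at none of the 5 times.

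Contralateral and naïve ONHs were compared in limma as a check of the unoperated side. No member was called at any of the 4 times, beside backgrounds of 0%, 0%, 0.112% and 0.691% of 18669 probe sets, and the count at an unadjusted p under 0.05 was 2, 2, 5 and 4 of 24, where 6.79%, 5.55%, 14.4% and 27.7% of all probe sets stood there. At an adjusted p under 0.05 and any size, 2 members passed, both at 3 weeks, where 10.1% of all probe sets did (0.0161%, 0% and 0.546% at the earlier times). These were Casp4 (0.60 ± 0.19, adjusted p = 0.0487) and Bak1 (0.27 ± 0.09, adjusted p = 0.0456), both higher in contralateral than in naïve samples.

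Other genes of the same pathways were counted by list. In the inflammasome list of 12 genes, 7 were measured and tested to 3 weeks. Of these, 4 were called higher and 1 lower at 1 day, 3 higher at 3 days, 5 at 1 week and 3 at 3 weeks. Of all probe sets, 7.02% were called higher and 7.44% lower at 1 day. Called higher were 6.6% of all at 3 days, 6.21% at 1 week and 2.36% at 3 weeks. At 3 months 6 inflammasome genes were bright enough to be tested. The brightness filter took crushed and contralateral arrays together. Whether each listed gene would pass it on contralateral arrays alone was not checked, so the counts of these lists may depend in part on the filter. Il1b, the interleukin that caspase 1 matures, rose by 5.08 ± 0.37, and Pycard, the adaptor that recruits caspase 1, by 1.96 ± 0.20 at 1 day, with Nlrp3, an inflammasome sensor, at 2.19. Il18, the other caspase 1 substrate among cytokines, fell by 1.10 on the log2 scale at that time. In the death receptor list, Tnfrsf10b (1.80) and Tnf (1.60) were called at 1 day and none of the 10 tested genes later. In the mitochondrial list, with 12 of 16 genes tested, Pmaip1 (Noxa, a BH3-only protein) rose by 2.10, 2.75 and 2.21 from 1 day to 1 week. Bok, a relative of Bak1, rose by 1.05 at 3 days. In the list of execution and inhibitors, Birc5 (survivin, which also serves cell division) rose by 1.99, 4.24 and 2.82, with Naip2 and Naip5, close paralogs whose probes may share targets, at 1.78 and 2.24 at 1 week. Of the 2 tested necroptosis genes, Zbp1, a nucleic acid sensor that binds Ripk3, rose by 2.47 ± 0.46 at 1 day (adjusted p = 0.000126), and Tlr3, a sensor of double-stranded RNA, fell by 0.30 on the log2 scale (adjusted p = 0.0189). Neither passed at a later time. No gene of these 5 lists was called at 3 months.

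Markers of cell types moved at the same times. Below, called keeps the 2-fold limit, while rose and fell mean an adjusted p under 0.05 at any size. Of 7 tested neutrophil markers, 5 were called higher at 1 day, where 7.02% of all probe sets were. Summed over the 11 measured, their intensity was 807 to 1340 in contralateral and 10704 to 21235 in crushed samples, with Elane, Mpo and Ngp under 50 in all crushed samples of that time. Cxcr2, Elane, Ltf, Mmp8 and Ngp stayed under 50 in all contralateral samples to 3 weeks. Not all 7 could thus have been tested on contralateral values alone, so the count of 5 of 7 depends in part on the filter. Of 21 microglia and macrophage markers, 10 rose and 9 fell at 1 day, with 6 called higher and 4 lower. Of all probe sets 25.8% rose and 28% fell then. At 1 week 19 of these markers rose and 1 fell, with 9 called higher and 0 lower, where 23% of all rose and 19.2% fell. The sum of these markers at 1 week was 56528 to 67267 in contralateral and 85701 to 130982 in crushed samples. The 10 oligodendrocyte markers all fell at 1 day (6 called lower), with a sum of 72726 to 81343 in contralateral and 35879 to 57254 in crushed samples. Of 14 astrocyte markers 11 fell at that time (5 called lower), with sums of 84680 to 90809 and 50493 to 64012. Of the oligodendrocyte markers 9 fell at each of the next 3 times and 4 at 3 months, where 15.2%, 19.2%, 12.1% and 0.377% of all probe sets fell. Of 8 markers of meningeal fibroblasts 6 fell at 1 day (3 called lower), from sums of 47536 to 60459 in contralateral to 29230 to 36565 in crushed samples. The median log2 difference of 13 markers of axons and ganglion cells was -1.42, -1.64 and -1.59 at 1 week, 3 weeks and 3 months. Of these markers 6, 7 and 5 were called lower, where 3.53%, 1.75% and 0.255% of all probe sets were. The list did not move in 1 direction throughout. At 1 day 1 marker was called higher and 0 lower, at 3 days 3 higher and 4 lower, and at 1 week 1 higher. Of all probe sets 7.02%, 6.6% and 6.21% were called higher at these 3 times, with 7.44% and 2.2% lower at 1 and 3 days. The sum of the 13 at 3 weeks was 13780 to 18963 in contralateral and 7759 to 16101 in crushed samples. All 14 astrocyte and 10 oligodendrocyte markers reached 50 on some array of every group. Of 12 tested T and NK cell markers (13 measured), 5 were called higher at 1 week, where 6.21% of all probe sets were. Cd4, Gzmb and Klrk1 stayed under 50 in all contralateral samples to 3 weeks, so this count too depends in part on the filter. Photoreceptor genes, from retina at the edge of the dissection, varied widely within groups, from 1370 to 88042 summed over 12 genes in naïve samples, and none of them was called at any time. The part of these cell types in the changes of the set was not tested.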

How the data were processed

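The authors measured total RNA of 55 samples on Affymetrix 430A 2.0 arrays and deposited 1 linear intensity per probe set and array, made in DChip from perfect-match minus mismatch probes after scaling arrays on an invariant set of probes. Array medians were 459 to 554 in the first batch and 494 to 598 in the second. Here 64 control probe sets were left out, values were raised to at least 20 (9.90% of them), log2 was taken, and probe sets reaching 50 on at least 5 arrays were tested with limma 3.58.1 in R 4.3.3 (with the package data.table, version 1.17.8), with p adjusted by Benjamini-Hochberg over all probe sets of a contrast. Of 22626 probe sets, 20380 named 1 gene, 691 several and 1555 none. The 40 crushed and contralateral arrays to 3 weeks shared a model with the pair as a block, the 10 arrays of 3 months had their own, and the 25 naïve and contralateral arrays an unpaired one. The pairing follows the methods and the replicate numbers. As a check, deviations of same-numbered samples correlated at -0.446 to 0.558 (median -0.0441, 25 pairs, 8 over 0.1). Of the 25 crushed samples, 3 correlated best with the contralateral sample of their own number, so this check did not bear out the pairing. Members and lists were chosen with earlier results of these data known. Genes called at 2-fold at any time were given in every sample at the time of their largest change, and of list genes the 3 largest called were eligible by name. Samples are pools of ONHs, and the number of arrays limits the precision. The fits were tested on simulated data. Figures were drawn in Python with matplotlib. Alternatives were other floors, filters and scalings, leaving out each replicate, no block, a photoreceptor covariate, the second brightest probe set and the methods' criteria.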

Additional observations from a re-analysis of the deposited data

Results flagged for a closer look

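In 22 groups of 5 samples whose values are printed, 1 sample stood far from the other 4 by Dixon's criterion: crushed replicate 3 of Ripk4 at 1 day read 112. Chance alone gives about 1 such group in 20.

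The crush effect itself differed between times, by an interaction contrast in limma with an adjusted p under 0.05, in 26 instances over 15 members. In the order of the contrasts below, 16.7%, 12.5%, 25% and 54.2% of members passed. Of all probe sets 15%, 9.81%, 15.2% and 37.2% did, so the first 2 shares lie near the background. From 1 day to 3 days the log2 effect shifted for Bcl2 by 0.79, Bcl2l11 by 0.72, Birc2 by 0.35 and Casp9 by 0.30. From 3 days to 1 week the log2 effect shifted for Bcl2l11 by 0.64, Casp12 by 0.57 and Bcl2l1 by -0.41. From 1 week to 3 weeks the log2 effect shifted for Bcl2l1 by 0.36, Casp2 by -0.53, Bcl2l11 by -0.54, Casp8 by -0.74, Ripk3 by -1.03 and Apaf1 by -1.32. From 1 day to 3 weeks the log2 effect shifted for Ripk4 by 2.48, Bcl2l11 by 0.82, Casp12 by 0.76, Bcl2 by 0.61, Birc2 by 0.60, Casp6 by 0.52, Casp9 by 0.23, Bak1 by -0.40, Bcl2l2 by -0.40, Casp8 by -0.60, Apaf1 by -0.92, Casp4 by -1.001 and Ripk3 by -1.82. The difference for Casp4 from 1 day to 3 weeks was no longer called with no filter, under quantile normalization, or without replicate 2, 3 or 5. The contralateral side moved too for 2 of these genes. Against naïve samples, contralateral Casp4 stood at 0.24 at 1 day and 0.60 at 3 weeks, and contralateral Bak1 at -0.01 and 0.27. The share of their shifts that lies on the contralateral side was not tested.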

How the results depend on the processing

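The counts of called members were 4 and 4 at 1 and 3 days, 7 and 1 at 1 and 3 weeks and 1 at 3 months. Without the replicate block they were again 4, 4, 7, 1 and 1 in that order, and of members past the test at any size only Apaf1 at 3 weeks was lost. Leaving out 1 replicate gave 4 to 7 at 3 days (7 without replicate 2), 4 to 8 at 1 week (4 without replicate 4, which lost Birc3, Casp8 and Casp1), 0 to 2 at 3 weeks (0 without replicate 1, 2 without replicate 3, 4 or 5), 0 at 3 months without any of the 5, and 1 to 2 for the difference from 1 week to 3 weeks (1 without replicate 1, 2, 4 or 5). The methods' criteria gave 3 at 1 week and 0 at 3 weeks. The difference from 1 week to 3 weeks gave 1 under quantile normalization and under a shift to a common median, where Ripk3 was lost. The difference from 1 day to 3 weeks gave 5 with the second brightest probe set, against 3. At 3 months no filter gave 0 and the photoreceptor covariate 0. The cause of these changes was not tested. Of 314 alternatives for single called members, 289 kept the call, 25 lost it and none turned the direction. Ripk3, Casp4, Casp1 and Casp8 have only 1 probe set. For them the second brightest probe set was the one already used, so that alternative kept the call by construction and is no check. Among members past the test at any size, the second brightest probe set turned Bak1 and Casp9 at 1 day and Bak1 at 3 weeks. The shift to a common median moved the median of all probe sets at 3 days from 0.04 to -0.09. Values near the floor understate fold changes of dim genes.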
